A study of Drosophila melanogaster with 2 samples.

Results

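Distal intergenic peaks of the transcription factor pan were the 763 peaks whose summit lay outside every annotated gene and more than 1000 bp from any transcription start site (TSS). They were taken from 6359 peaks on the main chromosome arms of the conservative pooled list, of which they made up 12% (exact Clopper-Pearson 95% interval, 11.2 to 12.8). The choice used position alone. Genes and start sites came from the Ensembl annotation of assembly dm6, without pseudogenes and transposable elements. The remaining peaks were 3428 promoter peaks within 1 kb of a TSS, 2048 intronic peaks and 120 exonic peaks, both over 1 kb from a TSS. Every one of the 763 also lay outside RefSeq genes and more than 1 kb from RefSeq transcript starts.

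The material was chromatin of whole Drosophila melanogaster embryos aged 0 to 24 h, from a transgenic strain that expresses pan fused to enhanced GFP, and per the labels' description the antibody of the precipitation was against GFP, while their antibody field gives pan. There was 1 group with 2 replicates, numbered as biological replicates by the labels, and chromatin was sheared by sonication to a labelled size range of 200 to 800. The labels point to a possible control experiment, which was not used here, and the specificity of single peaks for pan was not tested. Embryos of all stages and tissues were mixed: more cells that bind pan at a site and more binding per cell cannot be told apart. The lists carry no read depth and do not state the scale of their signal values, so tests of signal were made only within a list, and values of the replicates set side by side are descriptions.

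Pan, also called dTCF, is the single TCF/LEF protein of the fly and carries the output of Wingless, the founding Wnt ligand. Without Wnt signal it sits with the co-repressor Groucho at target genes, and with signal it recruits Armadillo, the fly beta-catenin. Its HMG domain reads a short AT-rich core site and a second domain, the C-clamp, reads a GC-rich helper site. Enhancers that integrate Wingless with tissue-specific inputs often lie far from the promoter in flies, within the long gaps between developmental genes.

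The summit and 50 bp to each side are shown first for some of the strongest distal intergenic peaks, to show the base composition under these summits. Sequences are the plus strand of dm6 as in RefSeq, 5′ to 3′, and the capital marks the summit base. Each name gives the nearest protein-coding genes on either side.
COX7AL2 to CG31668, chr2L:2202364-2202464, signal 1058.1: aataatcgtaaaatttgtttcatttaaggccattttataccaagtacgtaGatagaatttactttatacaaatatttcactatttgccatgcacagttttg
RFeSP to chinmo, chr2L:1632798-1632898, signal 947.9: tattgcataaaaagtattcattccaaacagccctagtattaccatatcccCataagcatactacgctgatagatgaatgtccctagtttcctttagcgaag
RFeSP to chinmo, chr2L:1638713-1638813, signal 821.4: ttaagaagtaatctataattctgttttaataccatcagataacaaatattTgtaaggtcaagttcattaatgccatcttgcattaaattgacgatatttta
CG9922 to foxo, chr3R:14053536-14053636, signal 800.9: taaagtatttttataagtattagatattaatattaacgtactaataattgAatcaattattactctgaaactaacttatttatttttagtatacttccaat
hng3 to CG13898, chr3L:781309-781409, signal 649.2: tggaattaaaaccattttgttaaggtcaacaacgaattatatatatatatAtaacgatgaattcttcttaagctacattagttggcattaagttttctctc
RFeSP to chinmo, chr2L:1643414-1643514, signal 632.4: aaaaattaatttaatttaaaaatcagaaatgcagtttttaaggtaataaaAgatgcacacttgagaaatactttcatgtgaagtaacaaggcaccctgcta

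The second set shows what a TCF core looks like at such a summit. These are strong distal intergenic peaks with a core (CTTTGAA or CTTTGAT or CTTTGTA or CTTTGTT, either strand) within 50 bp of the summit. Capitals mark each core.
Dip-B to tal-1A, chr3R:13800491-13800591, signal 497.2: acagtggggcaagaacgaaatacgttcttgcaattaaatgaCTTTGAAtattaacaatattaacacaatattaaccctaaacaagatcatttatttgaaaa
CG7484 to Crtc, chr3L:17658516-17658616, signal 427.7: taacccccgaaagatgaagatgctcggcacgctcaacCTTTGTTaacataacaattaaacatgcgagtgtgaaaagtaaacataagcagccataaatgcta
CG13896 to hng3, chr3L:724666-724766, signal 351.4: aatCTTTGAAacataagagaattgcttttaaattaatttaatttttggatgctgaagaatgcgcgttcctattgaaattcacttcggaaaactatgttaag
CG6168 to CG6163, chr3L:11353164-11353264, signal 342.1: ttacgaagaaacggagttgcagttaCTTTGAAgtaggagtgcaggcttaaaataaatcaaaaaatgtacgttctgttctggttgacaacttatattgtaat
Ids to sty, chr3L:3382578-3382678, signal 305.8: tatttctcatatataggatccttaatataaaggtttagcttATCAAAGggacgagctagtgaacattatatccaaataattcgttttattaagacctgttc
CG15283 to noc, chr2L:14461231-14461331, signal 270.6: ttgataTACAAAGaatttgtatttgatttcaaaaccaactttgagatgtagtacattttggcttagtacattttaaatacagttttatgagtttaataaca

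The third set holds some distal intergenic peaks with a TCF core that lay next to genes of the Wnt pathway, with capitals again on the core.
CG13309 to dally, chr3L:8813665-8813765, signal 156.7: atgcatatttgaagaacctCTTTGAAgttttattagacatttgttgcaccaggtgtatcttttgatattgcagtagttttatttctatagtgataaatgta
mib1 to Notum, chr3L:16015737-16015837, signal 92.3: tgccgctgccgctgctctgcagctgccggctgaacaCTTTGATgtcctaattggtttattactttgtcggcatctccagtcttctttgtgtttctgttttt
nkd to Acp76A, chr3L:19047101-19047201, signal 9.2: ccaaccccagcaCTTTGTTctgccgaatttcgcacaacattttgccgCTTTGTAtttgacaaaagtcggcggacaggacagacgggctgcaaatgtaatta

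Signal was lower at these peaks than at promoter peaks. The median signal was 109.7 at distal intergenic peaks (quartiles 82.3 and 161.3, range 3.06 to 1822), against 126.6 at promoter peaks, 114.3 at intronic peaks and 119.996 over all conservative peaks. Of the distal intergenic peaks, 43.5% exceeded the median signal of the whole list, where 50% of all peaks do, against 50.9% of the remaining peaks (odds ratio 0.744, 95% interval 0.639 to 0.866, adjusted p = 2.29e-04 by Fisher's exact test, two-sided). The odds ratio was 0.666 against promoter peaks (Fisher's exact adjusted p = 1.58e-06). Against intronic peaks, of which 47.0% exceeded it, the odds ratio was 0.870 (0.736 to 1.03) and did not pass (Fisher's exact adjusted p = 0.106). With overlapping peaks merged, or in either replicate's own list, that comparison passed as well (odds ratios 0.789, 0.763 and 0.804). Peaks are not independent replicates, so every such test describes this list of peaks, and says nothing about how embryos vary.

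A smaller share of them than of the remaining peaks was in the passing lists of both replicates. By an overlap of 50% of the shorter peak, 368 distal intergenic peaks (48.2%) were in the passing lists of both replicates, where 53.0% of all conservative peaks are, against 53.6% of the remaining peaks (odds ratio 0.805, 0.692 to 0.937, adjusted p = 0.00803, Fisher's exact test). Of the others, 97 were in the list of replicate 1 alone, 112 in that of replicate 2 alone and 186 in neither. The odds ratio was 0.740 against promoter peaks (Fisher's exact adjusted p = 5.52e-04) and 0.907 (0.768 to 1.07) against intronic peaks (adjusted p = 0.252), so a difference from introns was not detected. Presence in both passing lists followed pooled signal. It was 97.4% in the strongest quartile of distal intergenic peaks (186 of 191), 77.9% in the next, 17.3% in the third and 0.524% in the weakest (1 of 191). The pooled signal comes from the same 2 replicates, so this order is a description and not an independent result.

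Where both replicates had a ranked peak over the summit, their signals moved together. The median was 56.2 in replicate 1 (736 peaks) and 57.4 in replicate 2 (724 peaks). Over the 716 peaks with both, Spearman's rho was 0.72, against 0.78 at promoter and 0.75 at intronic peaks. It is given as a description since peaks of a library share its depth and scale. The list was also thresholded on the irreproducible discovery rate, which selects for peaks that agree between replicates. The log2 ratio of replicate 1 over replicate 2 had a median of -0.03 and a standard deviation of 0.45. That deviation was 0.45 at intronic and 0.52 at promoter peaks. The weakest values had a common feature: all 32 distal intergenic peaks under a signal of 40 overlapped a stronger conservative peak. In all, 75 of the 763 (9.83%) overlapped another conservative peak, where 9.7% of the whole list does.

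**Figure D1:**
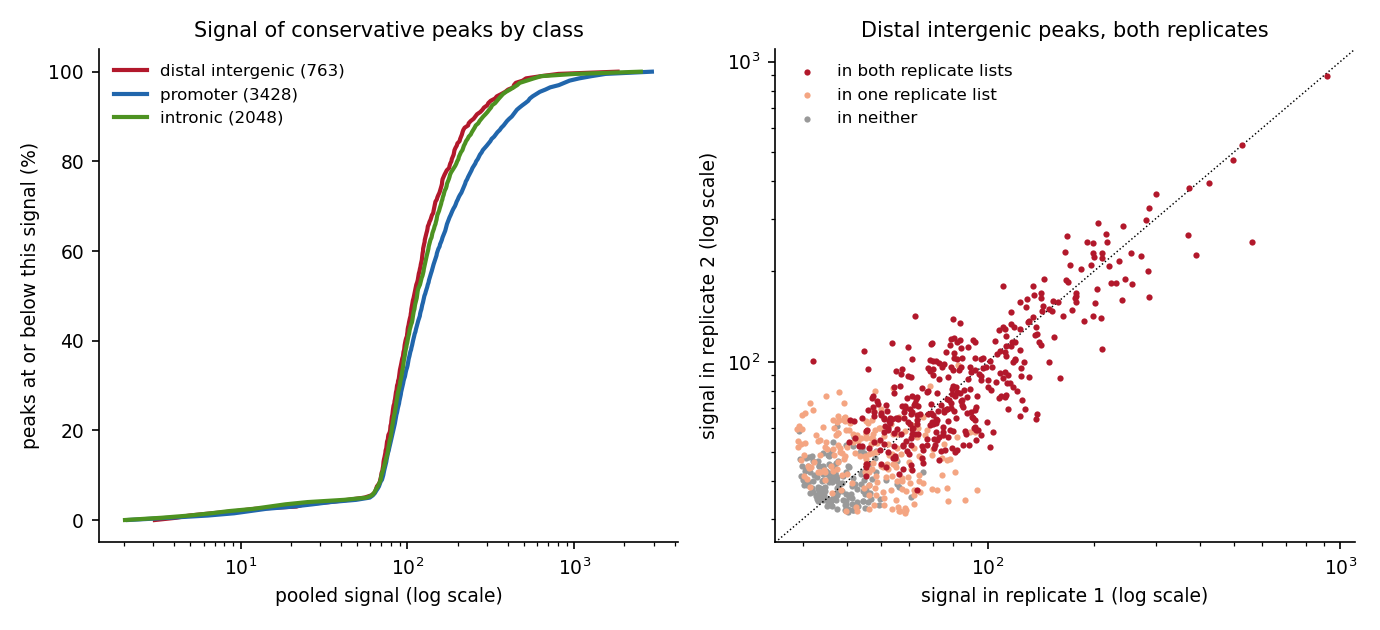
Left, the share of peaks (%) at or below each pooled signal (log axis) for distal intergenic, promoter and intronic conservative peaks; the distal intergenic line (median 109.7) lies left of the promoter line (median 126.6) through the middle of the range. Right, signal of each distal intergenic peak in replicate 1 and replicate 2 (log axes, dotted line of equality), coloured by presence in the replicates' passing lists; peaks in both lists lie at the upper end.

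The strongest distal intergenic peak had rank 12 in the whole list. It lay on 2R in the 36.8 kb gap between Su(z)2, which encodes a Polycomb group protein, and CG13323, 11911 bp from the nearest start site (chr2R:13035202-13035477), and its signal was 1822 (918 in replicate 1, 894 in replicate 2). A further strong peak lay on the other side of the Polycomb pair, in the gap between CG13321 and Psc, a core component of Polycomb repressive complex 1, with 635 (371 and 264). Both peaks recurred in both replicate lists, as did all 20 of the strongest. Only 3 distal intergenic peaks were among the 100 strongest of the whole list and 73 among the 1000 strongest, which is 7.3% against their 12% share of the list.

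Next to COX7AL2 and CG31668 on 2L stood a peak of 1058 (528 and 527). The gap between RFeSP, the Rieske protein of respiratory complex III, and chinmo, a BTB zinc finger regulator of neuronal temporal fate, held 3 peaks of 948 (498 and 469), 821 (563 and 252) and 632 (391 and 227). In the last 2 of these, and in a peak of 453 (286 and 165) beside NijA, replicate 1 was higher than replicate 2 by more than 0.5 on the log2 scale; the other 17 of the 20 strongest stayed within that. A peak of 801 (425 and 395) lay 3359 bp from foxo, the forkhead factor of insulin signalling, in its gap with CG9922. Between blw, a subunit of the mitochondrial ATP synthase, and CycB, a mitotic cyclin, stood a peak of 756 (373 and 380).

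Further down, a peak of 649 (301 and 363) stood in the gap of hng3 and CG13898, and one of 611 (286 and 325) between Sol1 and Cyp9f2. The gap of the paired forkhead genes slp1 and slp2, which act in segmentation and sustain wg, held one of 584 (281 and 296), 4336 bp from slp2. Peaks of 525 (CG43401 to CG43402), 499.99 (noc, a zinc finger gene, to CG33648) and 497 (Atf3, a bZIP factor, to CG32812) followed. The peak between Dip-B and tal-1A, which encodes short peptides of epidermal and leg development, reached 497 and held a TCF core. A peak of 494 (284 and 201.2) and that of 453 shared the 75.05 kb gap of NijA, a cell surface protein, and CG43245. The set closed with 485 (CG13898 to Sf3b3, a splicing factor), 479 (Atg13 to stck, an integrin adaptor) and 447 (CG8519 to ple, tyrosine hydroxylase). Of these 20 peaks 2 held a TCF core within 50 bp, that at Su(z)2 and that at tal-1A.

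Within the space that the rule allows, the peaks sat nearer to genes than background did. The background was 21483 peaks ranked on the pool below the threshold, which overlapped no passing list and met the same position rule. The median distance to a TSS was 3846 bp at distal intergenic peaks (lowest 1010, highest 37666) and 4583 bp in the background. Of 14 position features tested by Fisher's exact test, 28.6% were called higher and 21.4% lower in distal intergenic peaks. Summits within 2 kb of a TSS made up 24.6% of them and 18.4% of the background (odds ratio 1.45, 1.22 to 1.71, Fisher's exact adjusted p = 8.37e-05). With the limit moved to 2000 bp, the share in the next 1 kb gave an odds ratio of 1.10 (Fisher's exact adjusted p = 0.479), so the call rests on the peaks close to the limit. Summits within 1 kb of a gene's 3′ end made up 16.0% against 10.8% (odds ratio 1.57, 1.28 to 1.91).

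No difference by kind of gap was detected. Divergent gaps held 182 distal intergenic peaks (23.9%, background 23.2%), tandem gaps 375 (49.1%, background 49.7%) and convergent gaps 206 (27.0%, background 26.3%), and none of the 3 passed (odds ratios 1.03, 0.979 and 1.04, with intervals between 0.848 and 1.23). Long gaps were less frequent: 28.8% of distal intergenic peaks lay in gaps over 20 kb against 37.0% of the background (odds ratio 0.689, 0.587 to 0.807, Fisher's exact adjusted p = 2.10e-05). The nearest start site belonged to a protein-coding gene for 507 peaks (66.4%, background 68.3%), to a non-coding RNA gene for 238 (31.2%, background 30.3%) and to a tRNA gene for 17 (2.23%, background 1.09%).

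Among the arms, 3L held 219 distal intergenic peaks (28.7% against 22.0% of the background, odds ratio 1.43, Fisher's exact adjusted p = 7.36e-05), and X held 92 (12.1% against 16.0%, odds ratio 0.718, Fisher's exact adjusted p = 0.00679). Arm 2L held 170, 3R 168, 2R 112 and chromosome 4 held 2, none of which passed. Y held 0 of 763, for which an approximate one-sided bound of 3 in 763 allows a share of up to 0.393%, against 155 background peaks (0.722%). No conservative peak of any class lay on Y, so this is a feature of the whole list. Per megabase that the rule allows, the peaks numbered 28.6 on 2L, 26.1 on 3L, 25.9 on 3R, 19.0 on X and 16.9 on 2R. Background peaks numbered 701, 562, 831, 711 and 540 on the same arms. The call for 3L is a share set against the background, which was sparser there than on 2L or 3R. The density of distal intergenic peaks on 3L was lower than on 2L and close to that on 3R.

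Distance from the start site did not order the other measures. Median signal ran between 107.3 (2 to 3 kb) and 119.6 (20 to 50 kb) over 7 distance ranges. The share in both replicate lists was 53.2% from 1 to 1.5 kb, 44.5% to 50.6% in the ranges up to 20 kb, and 40.9% from 20 to 50 kb, where 22 peaks lay. TCF cores ran between 8.79% and 18.2% with no steady order.

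Closest to the limit were peaks of 86.4, 100.04, 73.7, 118.7 and 102.2 in signal, at 1010 to 1027 bp from the TSS of Sfp70A4, RabGGTa, pyd, lncRNA:CR44739 and CG43373. Just outside it were intergenic summits of 143.6, 213.8, 151.2, 81.6 and 307.8, at 996 to 971 bp from CG33080, lncRNA:CR45737, CG2772, org-1 and Prip. These values are a description of the limit only.

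Distal intergenic peaks more often had another conservative peak nearby than background did. Another conservative summit, of any class, lay within 5 kb of 58.5% of them and of 26.1% of the background (odds ratio 3.99, 3.45 to 4.63, adjusted p = 5.56e-75, Fisher's exact test). Grouping of distal intergenic peaks among themselves was not tested. Background peaks were required to overlap no passing peak, which could not hold for the peaks themselves. Counting only summits 1 to 5 kb away, chosen after seeing the data, the shares were 48.9% and 23.8% (odds ratio 3.06, 2.64 to 3.53). Of 4815 gene gaps with bases that the rule allows, 35.0 Mb in all, 488 (10.1%) held a distal intergenic peak. Of these, 342 held 1 and 87 held 2, while 30 gaps with 4 or more held 160 peaks.

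The fullest gap was on 3L before CG13898, with hng3 as the nearest protein-coding gene on its left (chr3L:770463-803426). It held 11 peaks over 31.3 kb, with signals of 74.99 to 649 and a median of 143.7, and 7 recurred in both replicate lists. Over all gaps beside a gene, 19 distal intergenic peaks flanked CG13898, the highest number of any gene, 18 flanked CG6163 and 17 flanked hng3. These counts overlap, as a peak between CG13898 and hng3 is counted for each of them. The gap of NijA and CG43245 held 9, all in its right part from 36.8 to 72.9 kb of 75.05 kb, with a highest signal of 494 and 6 in both lists. That of RFeSP and chinmo held 7, of which 6 were in both lists and which included 3 of the 9 strongest distal intergenic peaks. That of CG44362 and CG7560 also held 7, from 63.9 to 436, with 5 in both lists.

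In contrast the 8 peaks of the gap between CG6163 and CG11726 had a highest signal of 115.1, and 1 of them was in both lists; 2 of the 8, at 12.02 and 10.1, overlapped a stronger peak. Gaps of 7 also lay between scyl, a hypoxia-induced inhibitor of TOR, and Dyro (53.8 to 388), and between vvl, a POU factor of trachea and nervous system, and Prat2 (20.8 to 316). In the scyl gap, summits of 132.5, 84.1 and 80.1 lay close together, at 0.189, 0.393 and 0.598 kb from the left border. The median width of distal intergenic peaks was 340 bp. The first of these summits had no ranked peak of replicate 1, and the second none of replicate 2. The gap of RYBP, a Polycomb-associated protein, and Ppa, an F-box protein, held 6 within 6.73 kb, from 65.4 to 340. The gap of Su(z)2 and CG13323 held 5, and beside its peak of 1822 the values were low, with a median of 80.4 over all 5 and a lowest of 65.8. Doc2 and Doc1, T-box genes of the heart and amnioserosa, had 5 between them, from 69.3 to 446.

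**Figure D2:**
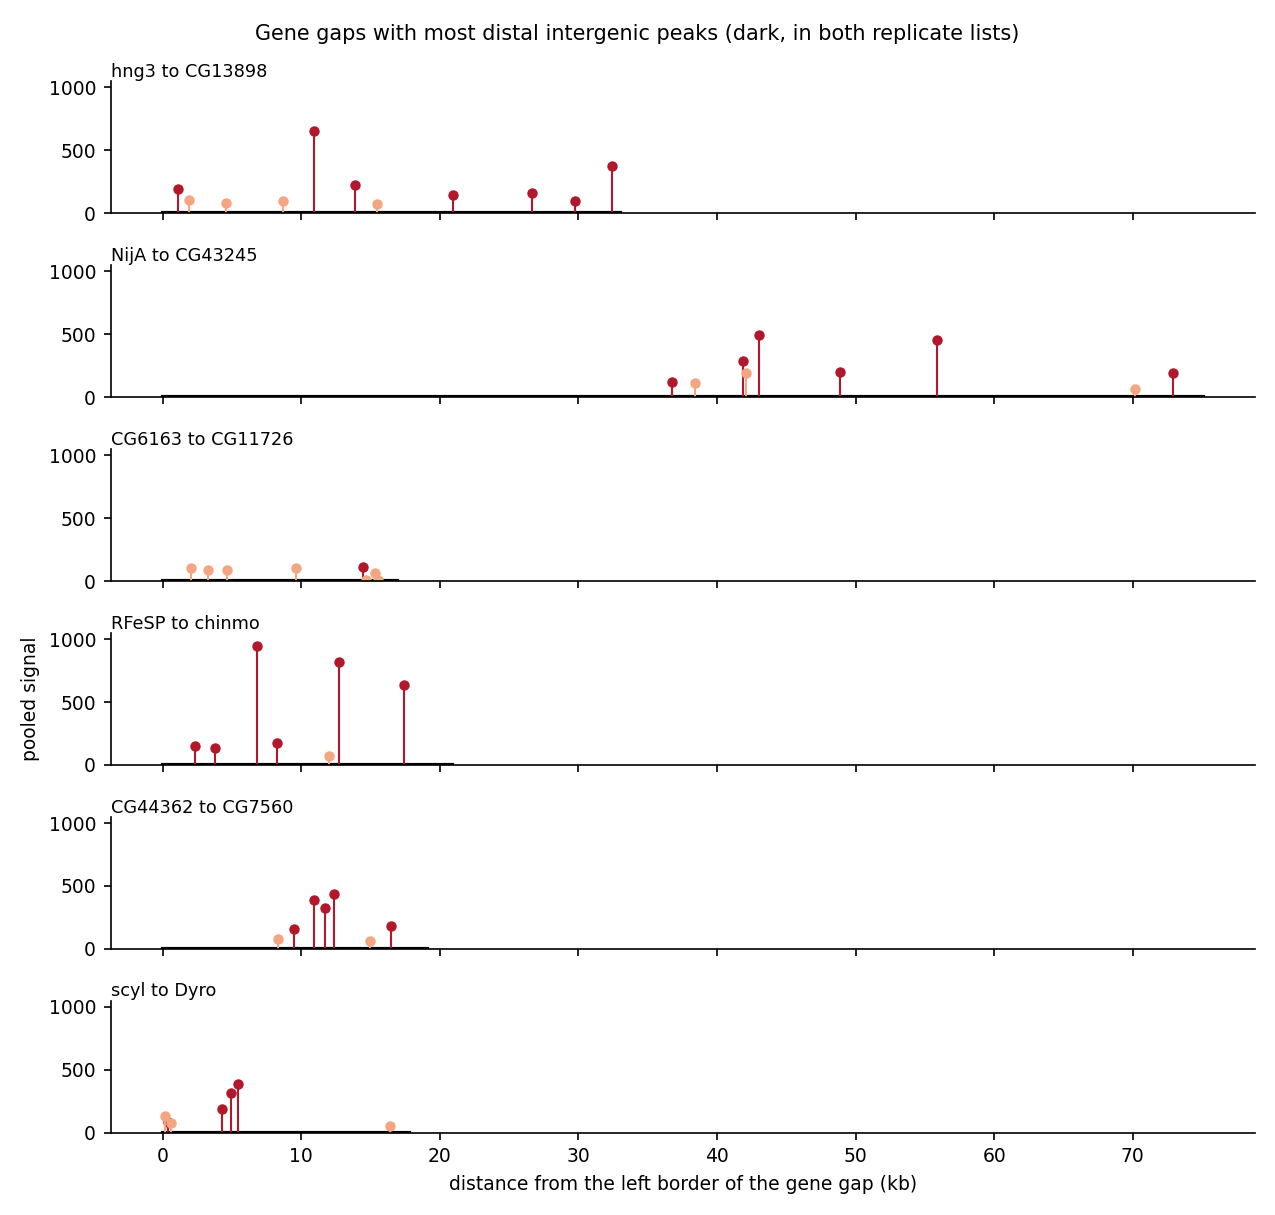
Each panel is one of the 6 gene gaps with most distal intergenic peaks, named by the nearest protein-coding gene on each side; the x axis is distance from the left border of the gap (kb), the black bar its length, and each stem the pooled signal of a peak. Dark stems were in both replicate lists; the RFeSP to chinmo gap holds 3 stems over 600 and the CG6163 to CG11726 gap none over 116.

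The summits were AT-rich, with GC-richer shoulders. In windows of 50 bp to each side of the summit the median GC content was 32.7% at distal intergenic peaks, 45.5% in the background and 41.6% in the windows centred 500 bp to either side. By quartile of signal it was 31.7% in the strongest distal intergenic peaks, 31.2% and 32.7% in the middle ones and 39.6% in the weakest. The 20 strongest had a median of 27.7%. The share of windows under the median of the whole list was 50.3%, against 10.2% of the background (odds ratio 8.95, 7.71 to 10.4, adjusted p = 4.45e-161, Fisher's exact test). Along the sequence, mean GC in 51 bp windows was 34.8% at the summit, 45.2% at 200 bp before it and 45.0% at 200 bp after it. The background showed the opposite shape, with 45.3% at the summit and 43.8% and 43.2% at the same distances. The foxo summit printed above was at the AT-rich end, with 16.8% GC.

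Promoter windows were GC-richer than distal intergenic ones: 50.3% of distal intergenic windows fell under the list median against 43.9% of promoter windows (odds ratio 1.29, 1.11 to 1.51, Fisher's exact adjusted p = 0.00258). This turned round in the list of replicate 1 alone (odds ratio 0.784) and stood at 1.62 in that of replicate 2 alone. Intronic windows had the same median of 32.7% (odds ratio 0.858, 0.726 to 1.01, Fisher's exact adjusted p = 0.0991), and in replicate 1's list alone the odds ratio was 0.634 and passed (Fisher's exact adjusted p = 1.28e-05). Soft-masked, repeat-like sequence held 22.9% of distal intergenic summits and 15.7% of background summits (odds ratio 1.601, 1.347 to 1.90, Fisher's exact adjusted p = 1.02e-06). For promoter (21.2%) and intronic (23.7%) summits no difference was detected (odds ratios 1.10, 0.915 to 1.33, and 0.959, 0.788 to 1.17).

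**Figure D3:**
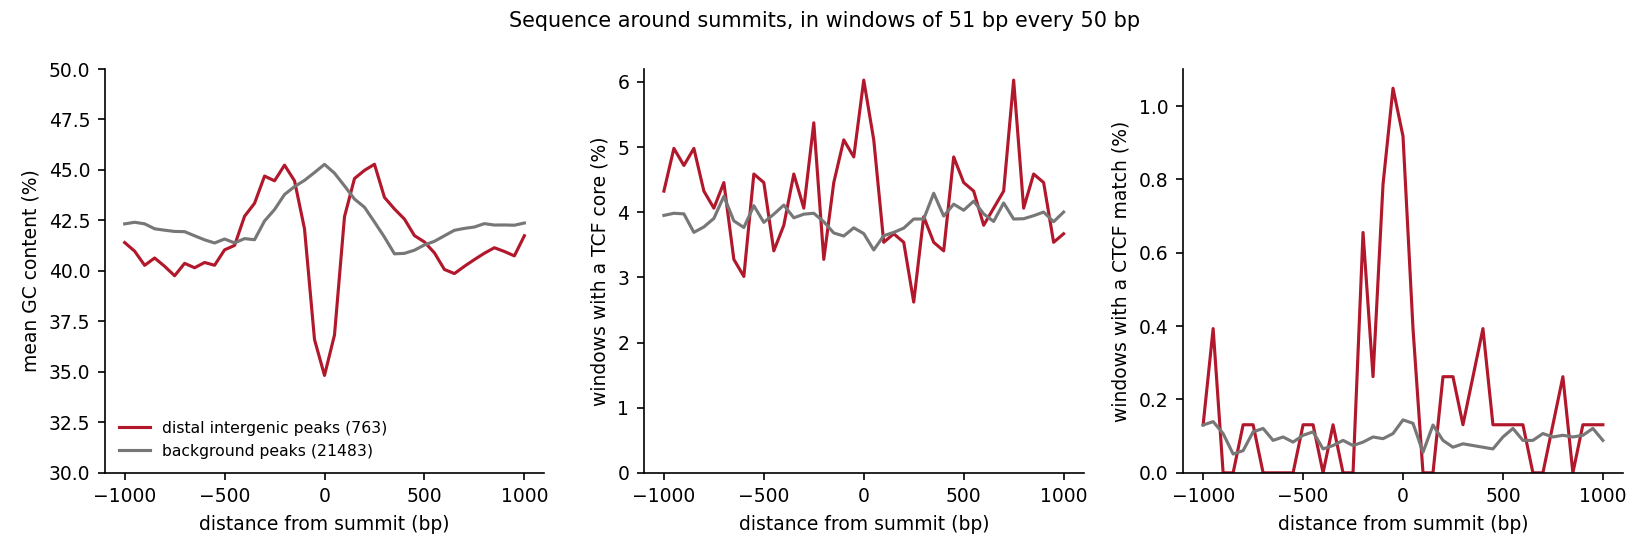
Mean GC content (%), share of windows with a TCF core (%) and share with a CTCF match (%) in 51 bp windows by distance from the summit (bp), for the 763 distal intergenic peaks and 21483 background peaks of the same position class. GC falls to 34.8% at the distal intergenic summit, where the background has 45.3%; the CTCF share stands at 0.917% there, against 0.144% in the background.

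The site that pan itself reads was present at a minority of the summits. A TCF core lay within 50 bp of 91 distal intergenic summits (11.9%), where 9.47% of all conservative summits have one, and in 8.91% of the windows 500 bp away (odds ratio 1.38, 1.05 to 1.83). With adjustment over 28 motifs this did not pass (adjusted p = 0.104, Fisher's exact test). Against the background, with windows stratified by GC content, the share of 7.58% there gave a Mantel-Haenszel odds ratio of 1.34 (1.07 to 1.69, Cochran-Mantel-Haenszel chi-square adjusted p = 0.0782). Without strata it was 1.65 and passed (Fisher's exact adjusted p = 2.15e-04), and with pseudogenes and transposable elements counted as genes it was 1.38 and passed (Cochran-Mantel-Haenszel chi-square adjusted p = 0.0342).

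Promoter peaks had fewer cores. There 8.14% of windows held one, against 11.9% of distal intergenic windows (stratified odds ratio 1.504, 1.17 to 1.93, Cochran-Mantel-Haenszel chi-square adjusted p = 0.0124). In the lists of the single replicates the odds ratios were 1.40 and 1.44 and did not pass (Cochran-Mantel-Haenszel chi-square adjusted p = 0.118 and 0.103). Intronic peaks, with 10.8%, were not distinguishable from distal intergenic ones (odds ratio 1.11, 0.858 to 1.44, Cochran-Mantel-Haenszel chi-square adjusted p = 0.716).

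The share of summits with a core showed no order with signal. The share was 10.5% in the strongest quartile of signal, 14.2% and 11.5% in the middle ones and 11.5% in the weakest. The median signal was 111.3 with a core and 109.3 without. Within 200 bp of the 763 summits 298 cores were found, of which 98 were centred within 50 bp and 59, 79 and 62 in the next 3 steps of 50 bp. Clusters of cores were rare: 46 windows of 200 bp to each side (6.03%) held 2 or more and 6 (0.786%) held 3 or more, against 4.56% and 0.549% of background windows.

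The helper site (GCCGCCA or GCCGCCG) was not called. It was within 50 bp of 17 summits (2.23%), where 2.31% of all conservative summits have it, and in 2.82% of flanking windows (odds ratio 0.786, 0.445 to 1.39). A core within 50 bp together with a helper site within 100 bp was found at 6 distal intergenic summits (0.786%), against 94 background summits (0.438%). The extended core CCTTTGAT was at 3 summits (0.393%).

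Against the flanks the highest odds ratio among the called motifs was that of the insulator protein CTCF, which organises chromatin contacts and borders Hox regulatory domains in the fly. Its forms searched were AGATGGCGC or AGGTGGCGC or AGAGGGCGC or AGGGGGCGC, on either strand. A match lay within 50 bp of 14 distal intergenic summits (1.83%), against 0.197% of flanking windows (3 of 1526, odds ratio 9.49, 2.72 to 33.1, adjusted p = 0.00122, Fisher's exact test) and 0.303% of the background (stratified odds ratio 11.0, 5.87 to 20.5). Without strata the odds ratio against the background was 6.16 (adjusted p = 6.11e-06, Fisher's exact test). Over the whole list 1.46% of summits have a match, and no difference was detected from promoter peaks (1.49%, odds ratio 1.57, 0.857 to 2.89) or intronic peaks (0.928%, odds ratio 1.74, 0.861 to 3.51). By exact sign tests that pair each summit with 1 of its flanks CTCF passed against the flank at lower coordinates (adjusted p = 0.0273) and not against that at higher ones (adjusted p = 0.0528). In windows of 51 bp the contrast with the flanks did not pass (odds ratio 7.06, Fisher's exact adjusted p = 0.229).

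Of these 14 summits 4 strong ones, chosen after their values were seen, are printed with the CTCF match in capitals.
Sid to snu, chr3R:28672341-28672441, signal 301.5: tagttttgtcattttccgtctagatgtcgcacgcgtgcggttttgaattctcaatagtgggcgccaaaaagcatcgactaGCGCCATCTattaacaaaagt
soti to cv-c, chr3R:14391351-14391451, signal 286.7: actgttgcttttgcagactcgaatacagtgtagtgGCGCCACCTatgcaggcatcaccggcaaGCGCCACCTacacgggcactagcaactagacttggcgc
vvl to Prat2, chr3L:6904103-6904203, signal 168.8: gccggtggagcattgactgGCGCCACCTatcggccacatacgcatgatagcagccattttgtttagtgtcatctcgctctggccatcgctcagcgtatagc
Chsy to sog, chrX:15594568-15594668, signal 164.8: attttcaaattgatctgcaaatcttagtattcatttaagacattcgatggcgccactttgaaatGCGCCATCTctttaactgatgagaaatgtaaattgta

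The 14 ranged from 41.1 to 301.5 in signal, 7 were in both replicate lists and 4 also held a TCF core. Their median GC content was 47.0%, against 32.7% over all distal intergenic summits. The summit between Chsy and sog, an inhibitor of BMP signalling, was one of these 4, and its core (CTTTGAA) stands in lower case just before the capitals in the line for it.

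Su(Hw), the zinc finger protein of the gypsy insulator, was also called higher than in the flanks. A match (GCATACTT or GCCTACTT) was at 15 distal intergenic summits (1.97%), where 0.991% of all conservative summits have one, and in 0.590% of flanking windows (odds ratio 3.38, 1.47 to 7.76, adjusted p = 0.0357, Fisher's exact test). The share was 0.852% in the background (stratified odds ratio 1.89, 1.11 to 3.23, Cochran-Mantel-Haenszel chi-square adjusted p = 0.0833) and 0.788% at promoter peaks (odds ratio 2.54, 1.348 to 4.78, Cochran-Mantel-Haenszel chi-square adjusted p = 0.0139). In the list of replicate 1 alone the odds ratio was 5.40 against the flanks and 1.77 against promoters, and neither passed (Fisher's exact adjusted p = 0.0604, Cochran-Mantel-Haenszel chi-square adjusted p = 0.619). In the longer pooled list the contrast with promoters did not pass either (odds ratio 1.99, Cochran-Mantel-Haenszel chi-square adjusted p = 0.145). Fisher's test treats a summit and its own flanks as independent windows; by exact sign tests that pair them, against the flank at higher or at lower coordinates, Su(Hw) did not pass (adjusted p = 0.0528 and 0.399). Strong examples, 3 of them, also chosen after their values were seen, carry it in capitals.
NijA to CG43245, chr3L:10739839-10739939, signal 494.1: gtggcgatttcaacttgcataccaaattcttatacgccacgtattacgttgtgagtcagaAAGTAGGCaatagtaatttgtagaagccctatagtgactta
Chsy to sog, chrX:15599822-15599922, signal 229.5: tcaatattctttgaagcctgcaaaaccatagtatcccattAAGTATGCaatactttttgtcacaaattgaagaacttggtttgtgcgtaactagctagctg
osp to CG15282, chr2L:14706371-14706471, signal 190.8: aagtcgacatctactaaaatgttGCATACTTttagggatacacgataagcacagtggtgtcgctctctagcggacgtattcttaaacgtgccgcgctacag

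The second of these also belongs to the gap of Chsy and sog, which thus held a distal intergenic summit with a CTCF match and another with a Su(Hw) match. Of the 15 summits 8 were in both replicate lists, and their signals ran from 66.1 to 494.

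Against the flanks 10.7% of the 28 motifs were called higher and 0.0% lower, and the third was the TATA box (TATAAAA), at 63 distal intergenic summits (8.26%) and in 4.72% of flanking windows (odds ratio 1.82, 1.28 to 2.58, Fisher's exact adjusted p = 0.0133). By the paired exact sign tests against the same flanks it did not pass (adjusted p = 0.0528 and 0.160). Over the whole list 8.37% of summits hold it, and with GC strata against the background it did not pass (odds ratio 1.21, Cochran-Mantel-Haenszel chi-square adjusted p = 0.403). Against the background 7.14% of motifs were called higher and 0.0% lower. The second of these calls, for M1BP (GGTCACACT), rests on 1 distal intergenic window and 4 background windows, and without strata its Fisher's exact adjusted p was 0.280.

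Some promoter motifs were scarcer than at promoter peaks, and for the TATA box no difference was detected. Against promoter peaks 7.14% of motifs were called higher and 10.7% lower. The TATA box was at 8.26% of distal intergenic and 7.96% of promoter summits (stratified odds ratio 0.948, 0.706 to 1.27, Cochran-Mantel-Haenszel chi-square adjusted p = 0.843). M1BP, at 0.131% and 0.992%, was not called either (odds ratio 0.164, Cochran-Mantel-Haenszel chi-square adjusted p = 0.168). The site of DREF (TATCGATA), a regulator of housekeeping and replication genes, was at 0.393% of distal intergenic summits and 2.74% of promoter summits (stratified odds ratio 0.146, 0.0458 to 0.467, Cochran-Mantel-Haenszel chi-square adjusted p = 0.00259). That of the boundary protein BEAF-32, which can overlap that of DREF, was at 2.10% and 6.74% (odds ratio 0.320, Cochran-Mantel-Haenszel chi-square adjusted p = 1.21e-04), and the core promoter element Ohler 7 (CATCNCTA) at 0.655% and 2.51% (odds ratio 0.269, Cochran-Mantel-Haenszel chi-square adjusted p = 0.0139). In the list of replicate 1 alone none of the 3 passed, with odds ratios of 0.163 for DREF, 0.556 for BEAF-32 (0.320 in the conservative list) and 0.179 for Ohler 7 (Cochran-Mantel-Haenszel chi-square adjusted p = 0.0717, 0.135 and 0.0717). In that of replicate 2 alone BEAF-32 passed, at 0.353 (Cochran-Mantel-Haenszel chi-square adjusted p = 0.0120), and DREF (0.319) and Ohler 7 (0.261) did not.

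No difference passed for sites of tissue regulators. GATA sites (AGATAA or AGATAG or TGATAA or TGATAG), which 20.8% of all conservative summits hold, were at 19.5% of distal intergenic summits and 17.0% of flanking windows (odds ratio 1.18, 0.945 to 1.48), Sox sites (ATTGTT) at 11.0% and 12.1% (odds ratio 0.897, 0.682 to 1.18), and homeodomain sites (TAATTA) at 8.13% and 6.62% (odds ratio 1.248, 0.898 to 1.73). The site of the pioneer factor Zelda (CAGGTAG) was at 4 summits (0.524%) and that of GAGA factor (GAGAGAG) at 7 (0.917%). Against intronic peaks no motif was called, 0.0% in either direction, by the Cochran-Mantel-Haenszel test; at an unadjusted p under 0.05 there were 2 higher (DREF and Su(Hw)) and 1 lower (forkhead), and Fisher's exact test without strata called 0 as well.

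**Figure D4:**
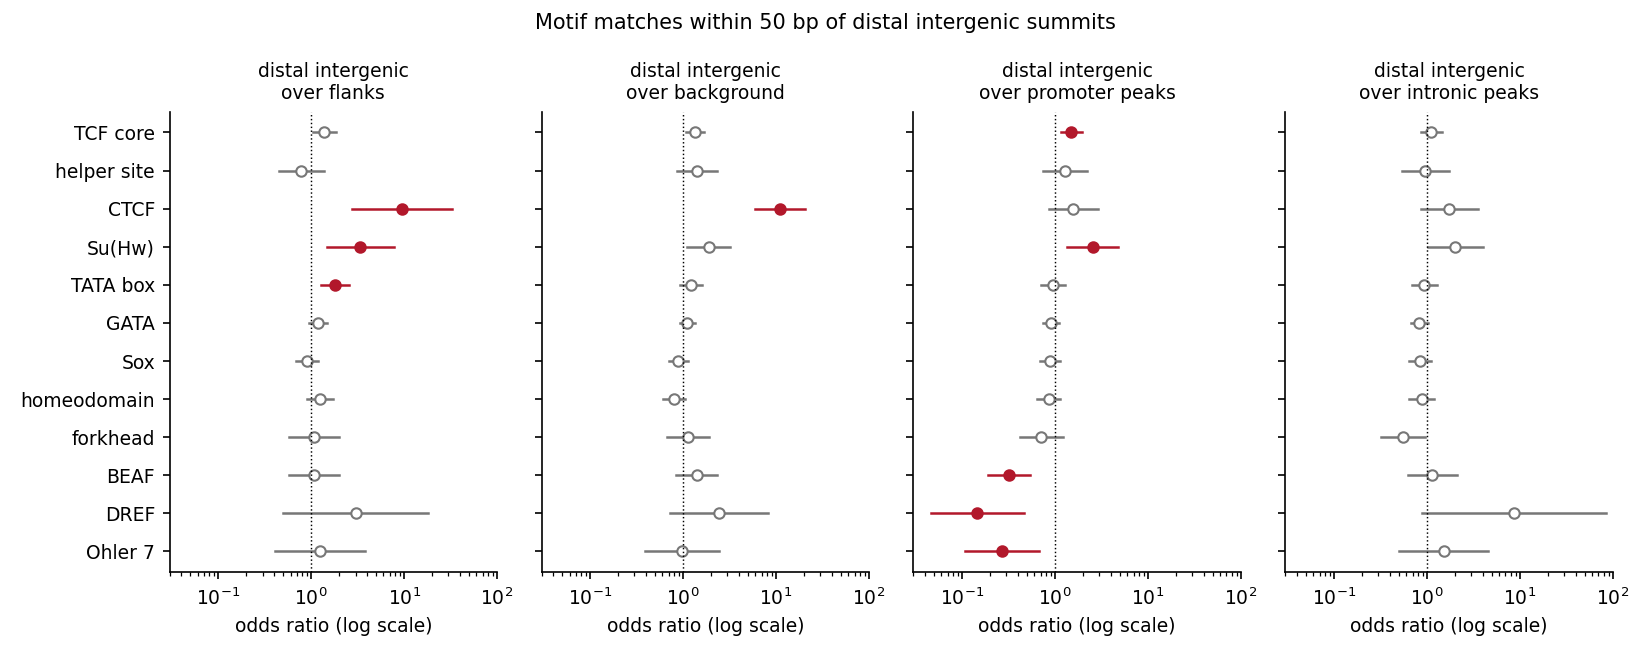
Odds ratio (log axis, bar 95% interval) of a motif match within 50 bp of the summit for 12 of the 28 motifs, distal intergenic peaks over flanking windows, over background peaks, over promoter peaks and over intronic peaks. Filled red points passed an adjusted p of 0.05; CTCF stands at 9.49 and 11.0 in the first and second panels, DREF at 0.146 in the third, and no point is filled in the fourth.

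All distinct 6-mers were compared with the background over GC strata. Of these 61 (2.93%) were called higher and 18 (0.865%) lower in distal intergenic windows by the Cochran-Mantel-Haenszel test. The counts depend on how GC is handled: 22 and 2 with strata cut on the distal intergenic windows alone, a choice made after seeing the data, with 19 of the 61 shared, and 368 and 507 without strata. The highest odds ratio among 6-mers at 2% or more of windows was that of GGCGCC, 3.42 (Cochran-Mantel-Haenszel chi-square adjusted p = 7.32e-05), at 20 summits (2.62%) and 1.601% of the background. Of these 20 summits 8 had a CTCF match. GCGCCA, which lies on the other strand of the CTCF forms AGATGGCGC and AGGTGGCGC, stood at 2.03 (4.72% against 4.36%).

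Other 6-mers were higher as well. TAACTA was at 10.5% of distal intergenic windows and 2.90% of the background (odds ratio 2.14, Cochran-Mantel-Haenszel chi-square adjusted p = 5.76e-06), TACTAA at 8.65% and 2.41% (odds ratio 2.08), and CCTAAC at 3.41% and 1.53% (odds ratio 2.09). ATCTAG (4.06% and 1.56%, odds ratio 2.05) and GTGGTA (4.98% and 2.60%, odds ratio 2.04) also passed. AGGGGG passed within the GC strata (odds ratio 2.03), while its plain share was slightly lower than in the background (4.98% and 5.33%). Each 6-mer named so far in this paragraph kept an adjusted p under 0.05 with the other strata. ACCTAG (2.22) and CGCGCC (2.00) did not pass (Cochran-Mantel-Haenszel chi-square adjusted p = 0.0540 and 0.0950). The lowest were TGGCCA at 2.23% against 8.28% (odds ratio 0.414), AACTGG (0.455), AAGCCA (0.476), AATGGC (0.481) and GCCATA (0.501), of which AAGCCA alone passed with the other strata.

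The protein-coding genes nearest to the peaks on either side were counted last. Of 6200 genes beside at least 1 base that the rule allows, 816 (13.2%) flanked a distal intergenic peak. By the nearest start site, the count was 366. The share grew with the room beside the gene: it was 2.66% for genes with up to 2 kb of allowed sequence, 14.2% at 2 to 5 kb, 26.8% at 10 to 20 kb, 36.1% at 20 to 50 kb and 40.7% above. The lists below were chosen with earlier results of these data known, and their counts are descriptions, to be read beside these shares.

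The lists of developmental regulators had these counts. Of the eligible segment polarity genes 6 of 9 flanked one, of the pair-rule genes 6 of 11, and of the mesoderm and heart regulators 9 of 18. The genes of the first 2 lists had a median of 15.7 and 25.5 kb of allowed sequence and those of the third 10.3 kb, against 2.04 kb over all genes. Of the endoderm and gut list 5 of 10 flanked a peak (median 6.81 kb), of EGFR and FGFR signalling 5 of 10, of appendage and disc selectors 6 of 14, of the BMP pathway 3 of 7, of Hox genes 3 of 8, of nervous system regulators 4 of 12, of trachea and epidermis 3 of 9, of the Notch pathway 3 of 10, and of gap genes 1 of 6. For hemocyte genes it was 2 of 6, for Hedgehog pathway genes 1 of 4 and for germline genes 1 of 2. Cytosolic ribosomal protein genes had 2 of 23 (8.70%), with a median of 1.93 kb, chemosensory receptors 4 of 35 (11.4%) with 6.58 kb, and insulator genes 0 of 3.

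**Figure D5:**
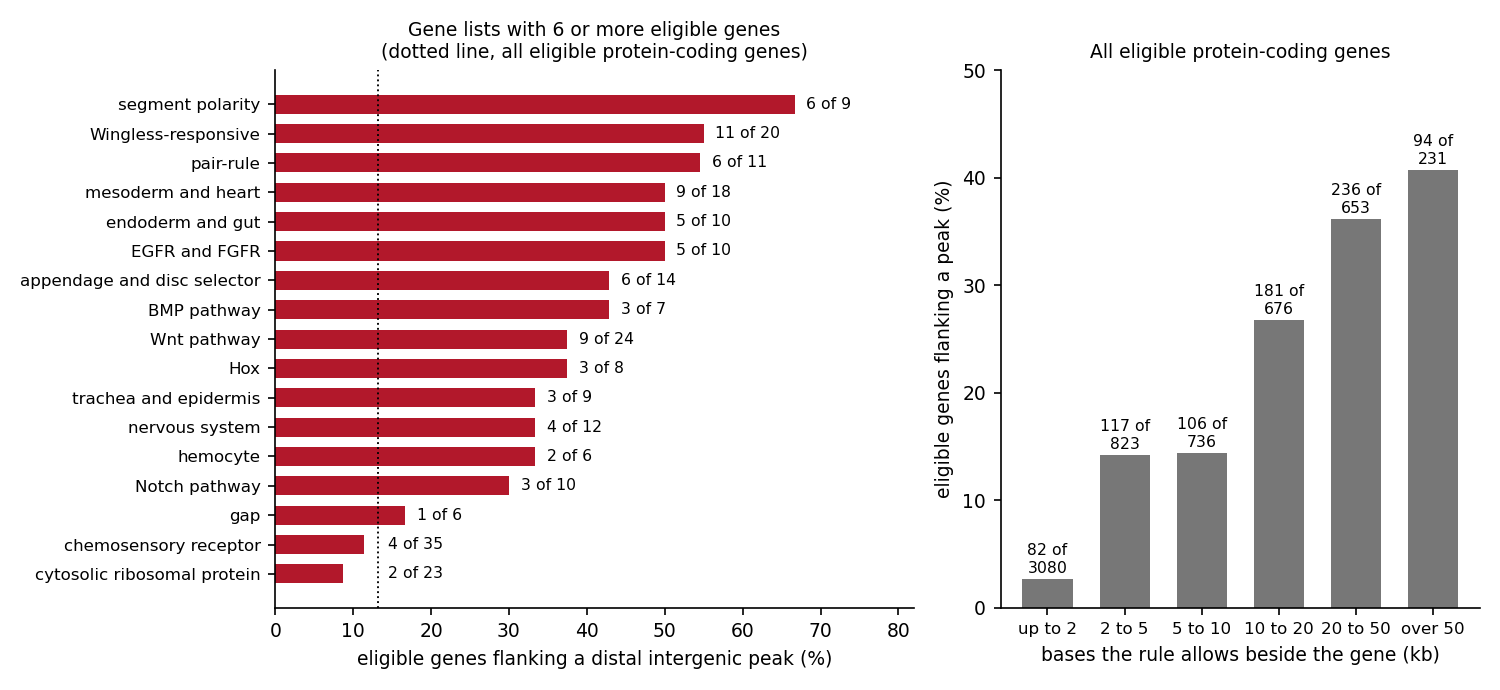
Left, share (%) of eligible genes that flank a distal intergenic peak in each list with 6 or more eligible genes, with counts; the dotted line is the 13.2% of all eligible protein-coding genes. Right, the same share over all eligible protein-coding genes by the length of sequence beside the gene that the rule allows (kb); it runs from 2.66% to 40.7%.

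Of the Wnt pathway 9 of 24 eligible genes flanked a distal intergenic peak (37.5%, median 3.16 kb of allowed sequence), and of reported Wingless-responsive genes 11 of 20 (55.0%, median 15.4 kb). Together these were 17 genes and 37 peaks. The 37 had a median signal of 94.6 (lowest 9.25, highest 584), 10 (27.0%) were in both replicate lists and 8 (21.6%) held a TCF core within 50 bp, against medians and shares of 109.7, 48.2% and 11.9% over all distal intergenic peaks. No test was made on these chosen lists.

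Among the ligands, the gap between Wnt4 and wg, the Wingless gene itself, held 4 peaks. The strongest, 11108 bp from wg, reached 147.3 (replicate 1 at 75.4, replicate 2 at 68.8) and recurred in both lists. Of the others, 100.2 (61.8 and 37.3) and 96.4 (57.2 and 39.96) were higher in replicate 1 and in its list alone, and 90.5 (45.3 and 41.7) was in both lists. A peak of 76.7 lay on the far side of Wnt4. None of the 5 held a TCF core within 50 bp.

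Of the Frizzled receptors, fz had peaks of 128.7 (81.0 and 42.9) and 41.0, which overlap each other, on the side of CG7906. The peak beside fz4, 95.6 (28.7 and 59.7), and that between RpL22 and fz3, 75.4 (33.3 and 45.0), were each a single one. None of the 4 was in both lists. Beside dally, a glypican co-receptor of Wingless, stood 2 peaks of 156.7 (70.0 and 90.6, both lists, with a TCF core) and 100.3. The gene lgs, whose product ties Armadillo to Pygopus, had the strongest peak of the pathway list, 343.6 (169.5 and 184.1, both lists) on chromosome 4.

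The feedback inhibitor genes had peaks of low signal, each with a TCF core in 1 of them. Notum, the secreted enzyme that removes the lipid of Wnt ligands, had 1 peak of 92.3 (46.2 and 42.9), in the list of replicate 1 alone. The gene nkd, which encodes an intracellular antagonist, had 3 in its gap with Acp76A, of 90.2 (36.9 and 42.7), 75.5 (36.8 and 35.1) and 9.25. None of the 3 was in either replicate list. The weakest overlapped the strongest and had no ranked peak of either replicate over its summit, and its window, printed above, holds 2 TCF cores.

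Of the responsive genes outside the pathway, slp1 and slp2 shared the peak of 584 and a weaker one of 81.6 with a TCF core, and slp1 had 2 more (75.7 and 75.5) and slp2 1 more (94.6). The gene hth, which encodes a TALE homeodomain partner of Hox proteins, was flanked by 7 peaks, from 73.2 to 210.2 (124.3 and 95.2), with 2 in both lists and 2 with a core. The BMP ligand gene dpp had 162.9 (92.9 and 70.6, with a core) and 117.3, both in both lists. The homeobox genes en and inv had 1 peak each, 100.2 and 64.4, outside their shared gap and without a core. Beside pxb stood 3 (82.1 to 87.8), and the Hox gene Dfd shared 1 with Scr, of 122.3 (70.4 and 55.1, both lists).

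Among the other segmentation and selector genes, ptc, the Hedgehog receptor gene, had its strongest peak at 305.9 (129.6 and 162.4). The odd-skipped family gene drm was flanked by 8 peaks, the strongest at 232.6 (110.7 and 130.5), of which 5 were in both lists and 3 held a TCF core. The T-box gene mid reached 155.0 (92.1 and 58.3) and the gap gene kni 116.6 (67.2 and 53.0). The Hox gene abd-A had 257.1 (116.3 and 147.0).

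Mesoderm and gut regulators followed. The peak of 445.7 (236.2 and 217.5) between Doc2 and Doc1 was the strongest of the mesoderm and heart list. The forkhead gene bin, which acts in visceral mesoderm, had 250.2, with 183.4 in replicate 1 and no ranked peak of replicate 2 over the summit. Beside dve, a homeobox gene of the midgut, the strongest was 235.5 (111.8 and 128.3), and beside cad, the posterior homeobox gene, 205.9 (62.2 and 142.0). In the nervous system list SoxN had 198.9 (87.8 and 112.2) and Dr, a homeobox gene of dorsoventral patterning, 188.5 (100.3 and 87.2). The POU gene vvl had 316.4 (152.9 and 159.9) among 9 peaks, of which 4 were in both lists.

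In the signalling lists, aop, which encodes an Ets repressor downstream of receptor tyrosine kinases, had 349.0 (144.5 and 188.6). The feedback inhibitor gene sty had 305.8 (152.5 and 147.5) among 6 peaks, of which 5 were in both lists, and its window with a TCF core is printed above. The Notch target E(spl)mbeta-HLH had 272.5 (138.1 and 123.6) and the BMP inhibitor gene sog 229.5 (127.0 and 99.5). Of the lists with low counts, the chemosensory receptor Gr89a had 298.8 (135.0 and 167.4) and the scavenger receptor gene Sr-CI of hemocytes 247.6 (123.8 and 128.5). The ribosomal protein genes RpL22 and RpS7 had 1 peak each, both of 75.4; that of RpL22 was in neither replicate list and that of RpS7 in the list of replicate 2 alone.

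The remaining named genes of these lists had 1 peak each, with signals of 183.8 and below. Those in both replicate lists were beside vn, an EGFR ligand gene, with 183.8 (94.4 and 91.2), Or85b, an odorant receptor gene, with 162.6 (91.9 and 69.2), the homeobox gene C15 with 150.2 (91.2 and 64.9) and the gustatory receptor gene Gr93a with 138.2 (69.6 and 62.8). The Notch ligand gene Ser had 132.0 (61.7 and 71.8), fng, whose product glycosylates Notch, 118.4 (55.6 and 64.4), and the zinc finger gene nerfin-1 112.4 (54.4 and 57.9). Of these 7 peaks those of vn and Ser held a TCF core. The other 5 were not in both lists: 95.9 (58.7 and 37.1) beside the GATA factor gene srp, 80.7 beside the tracheal gene trh (36.7 in replicate 1 and no ranked peak of replicate 2), 80.3 (50.8 and 35.3) beside Dad, an inhibitory Smad gene, 80.04 (35.2 and 42.2) beside the Snail family gene esg and 73.7 (34.5 and 37.1) beside the germ plasm gene osk.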

How the data were processed

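Chromatin immunoprecipitation sequencing of pan was analysed from the deposited peak lists of assembly dm6: a conservative and a longer pooled list, a passing list for each replicate, and ranked lists for the pool and each replicate. Per the labels' file descriptions and the narrowPeak layout, each peak carries a score rescaled from the irreproducible discovery rate (IDR), a signal value (the enrichment that the peak caller gave) and a summit. The deposited score was used to tell peaks above the threshold from those below it, and the deposited signal was the measure; both are the authors' own values for the peak. The aligner and the peak caller are not given in the sources used here, read depth is unknown, and the control named in the descriptions was not used here. Each list's thresholds could therefore shift which peaks are compared.

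Summits were placed against Ensembl genes, with gene synonyms, the genome sequence and a second gene set from RefSeq. Background peaks were pooled ranked peaks below the threshold that overlapped no passing list. Shares were compared by two-sided Fisher's exact tests with Woolf 95% intervals, or over 5 GC strata by Mantel-Haenszel odds ratios and the asymptotic Cochran-Mantel-Haenszel test, each adjusted by Benjamini-Hochberg within its family (28 motifs, 14 position features, 2080 6-mers, or the comparators of one measure). An adjusted p under 0.05 counts as called. No sequence from arm 2R is printed. A further peak is not reported here. Motifs were searched on both strands in 101 bp windows. Exact Clopper-Pearson intervals cover counting error only. Python 3.11.15, numpy 2.4.6, pandas 2.3.3, scipy 1.17.1 and matplotlib 3.10.9 were used, and the procedure was tested on simulated data.

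The genes named were those flanking the 20 strongest peaks and the 10 fullest gaps, every Wnt pathway or Wingless-responsive gene with a peak, up to 3 genes for each other list, and those at the 1000 bp limit. The peaks and the gene lists were chosen with earlier results of these data known. Gene lists were described by counts beside all eligible genes, without a test. Alternatives covered the distance limit, the windows, the strata, the gene models, the overlap rule and each replicate's list alone.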

Additional observations from a re-analysis of the deposited data

Results flagged for a closer look

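Distal intergenic signal was also found outside the conservative list, in lists that the comparisons above did not use as their main measurement. In the longer pooled list 168 of 841 distal intergenic peaks (19.98%) overlapped no conservative peak, and their median signal was 70.3, against 104.9 over all 841. In the passing list of replicate 1 there were 62 of 551 (11.3%), with a median signal of 49.4 against 68.5 over all 551. In that of replicate 2 there were 73 of 570 (12.8%), with 49.5 against 65.7. The choice of peaks outside a stricter list bears on these medians, and each full list includes the peaks set against it, so they are descriptions. No control samples were analysed here against which to set them.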

How the results depend on the processing

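No paired analysis was possible because the series has 1 group, so the replicate numbers pair no samples. The share of the list that was distal intergenic was 14.5% with a limit of 500 bp from a TSS, 9.04% with 2000 bp, and 10.7% to 12.1% in the list of one replicate alone, where all "alone" values leave out the other replicate. Those lists gave odds ratios of 0.763 to 0.804 for signal over the list median against introns (0.870 in the conservative list), 0.784 to 1.62 for low GC against promoters (1.29 in the conservative list), 0.634 (replicate 1 alone, which passed) to 0.889 against introns, 1.26 to 1.74 for TCF cores against flanks (the higher one, from replicate 1 alone, passed at an adjusted p of 0.0252), 1.22 to 1.31 against background and 6.11 to 14.2 for CTCF against flanks. The low GC odds ratio of 0.784 is the only reversal among the alternatives run; its cause was not tested.

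With the 500 bp limit, low GC stood at 0.811 against introns (passed) and 1.15 against promoters (did not pass), and signal against introns at 0.836 (passed). Merging overlapping peaks gave 0.789 for that last value. With the 2000 bp limit, the share in the next 1 kb stood at 1.10 and did not pass. TCF cores against background passed without strata (1.65) and with pseudogenes and transposable elements as genes (1.38). CTCF against flanks did not pass in 51 bp windows (7.06) or by a sign test with the flank at higher coordinates (7.0). The 6-mers called higher numbered 368 without strata and 22 with strata of the peaks themselves (added after seeing the data), and those called lower 507 and 2. By nearest TSS 366 genes had a peak. Motif calls for M1BP, Su(Hw), the TATA box and promoter elements gained or lost a call under at least 1 alternative, with the direction kept. Read depth is unknown, and 186 of 763 peaks were in neither replicate's passing list.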

Other observations

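Genes outside the fixed lists stood beside some of the fullest gaps. Distal intergenic peaks around the genes CG13898 (19 peaks), CG6163 (18 peaks) and hng3 (17 peaks) outnumbered those around any Wnt or Wingless-responsive gene, where hth had most with 7. RFeSP and chinmo had 12 each, and these were the same peaks. They lay in gaps of 7, 3 and 2 peaks, separated by non-coding genes, between RFeSP and chinmo. The counts of CG13898 and hng3 also overlap, since gaps of 11 and 2 peaks lay between them. A peak is counted for each protein-coding gene beside it, so these counts do not add up to separate peaks. These 5 genes were chosen by their counts and have no test.

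Peaks reported here flanking Wnt pathway or Wingless-responsive genes with a TCF core were spread over signals: 162.9 beside dpp, 156.7 beside dally, 100.02 and 80.9 beside hth, 92.3 beside Notum, 81.6 between slp1 and slp2, and 9.25 beside nkd. The first 2 were in both replicate lists, and the others were not.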
